A study of Homo sapiens with 8 samples.

Results

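The 9 genes described here pass on or restrain the Hedgehog signal between the cell surface and the GLI transcription factors. These are PTCH1, HHIP, GAS1, BOC, CDON, SMO, SUFU, KIF7 and GLI3. They were taken by symbol from the gene count table, which lists 60282 genes, and all 9 passed the filter on low counts that left 14073 genes to be tested. PTCH1 fell 2.58-fold in cells treated with TP-472, and it was called with each library left out in turn. SMO and SUFU also fell, but the size of both changes depended on vehicle replicate 3. Once that library was out, the size for SUFU depended on vehicle replicate 1 as well. The SUFU call with 8 libraries ended without any single TP-472 library, and the SMO call without TP-472 replicate 2, 3 or 4. GLI3 lay at the threshold, GAS1, BOC and CDON were not called with all 8 libraries, and HHIP and KIF7 did not pass it.

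SK-UT-1, an established human cell line from a uterine leiomyosarcoma, a malignant smooth muscle tumour, was grown in medium with 10% fetal bovine serum and treated for 48 h. The 4 TP-472 libraries came from cells given 5 µM TP-472, a small-molecule inhibitor of the bromodomain proteins BRD9 and BRD7, and the 4 vehicle libraries from cells given DMSO. All libraries came from 1 cell line with no change to its genome, and a single dose and time were measured. The totals were 32574716 to 38545695 counts a library.

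Hedgehog ligands bind PTCH1, a membrane receptor that holds SMO inactive in their absence. Ligand binding releases SMO, which moves into the primary cilium and frees the GLI factors from SUFU. GLI1 acts as an activator, GLI2 mainly as an activator, and GLI3 mainly as a repressor once it has been cut to its short form. PTCH1, HHIP and GLI1 are themselves textbook targets of the pathway, so their RNA is often read as its output, whereas GAS1, BOC and CDON are ligand-binding coreceptors that can be repressed by it.

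A start of PTCH1 and the start of HHIP are shown because these 2 members are both known targets, and of 5 annotated PTCH1 starts the one printed was chosen because it alone holds the letters of the GLI consensus. Windows from 250 bases before to 50 bases after each annotated start were read from RefSeq on GRCh38.p14, and 8 of the 9 members matched, with 15 windows between them. The GLI consensus was searched as GACCACCCA and as its reverse complement TGGGTGGTC, which stands in capitals in the PTCH1 window. The PTCH1 window is chr9:95509217-95509516 on the minus strand, and the HHIP window is chr4:144645906-144646205 on the plus strand.
PTCH1: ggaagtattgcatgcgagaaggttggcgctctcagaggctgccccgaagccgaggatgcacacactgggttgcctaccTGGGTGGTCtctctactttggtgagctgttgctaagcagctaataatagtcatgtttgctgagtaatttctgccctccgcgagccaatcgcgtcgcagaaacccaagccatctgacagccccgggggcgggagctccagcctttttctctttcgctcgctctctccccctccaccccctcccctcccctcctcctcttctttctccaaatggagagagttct
HHIP: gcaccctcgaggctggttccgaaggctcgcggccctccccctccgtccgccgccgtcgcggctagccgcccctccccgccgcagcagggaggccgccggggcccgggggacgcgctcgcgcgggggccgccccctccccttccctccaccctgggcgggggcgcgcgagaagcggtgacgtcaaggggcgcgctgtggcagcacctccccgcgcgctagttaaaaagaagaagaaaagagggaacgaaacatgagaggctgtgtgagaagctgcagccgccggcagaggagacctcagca
The letters begin at base 79 of the PTCH1 window, 172 bases before the start, and were found in none of the other 4 PTCH1 windows and in no window of the other members. Over all 35116 windows, 83 held them (0.236%). A match is a description of the sequence and not evidence of a bound site. The Sp1 box GGGCGG (reverse CCGCCC) was found in 9 of the 15 member windows, against 45% of all windows. The CCAAT box (CCAAT, reverse ATTGG) was found in 4 of the 15, against 34.6%, and the TATA box (TATAAA, reverse TTTATA) in 0, against 11.5%. The median GC content of the member windows was 65.7%, against 58.7% for all windows.

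1 vehicle library stood apart from the rest. The median Spearman correlation of vehicle replicate 3 with the other vehicle libraries was 0.914, whereas the other vehicle libraries had 0.988 to 0.989 and the TP-472 libraries 0.993 to 0.997 within their groups. Across 13970 genes, which are not independent replicates, its log2 ratio to the other vehicle libraries rose with the GC content of the gene (Spearman rho 0.779). The corresponding value for vehicle replicate 1 against replicates 2 and 4 was 0.128. Values are therefore given for all 8 libraries and for the 7 libraries without vehicle replicate 3. The part of GC content in any single result was not tested beyond the correction described in the closing section.

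With all 8 libraries, 4 of the 9 members were called at an adjusted p under 0.05 and a fold over 1.5 in edgeR's quasi-likelihood test with Benjamini-Hochberg adjustment (PTCH1, SMO, SUFU and GLI3), all lower with TP-472. Over all genes tested, 26.9% were called, 14.9% lower and 12% higher. With 7 libraries, 3 members were called (PTCH1, SUFU and GAS1), again all lower, against 25.5% of all genes in either direction and 13.4% lower. The median log2 fold change of the members was -0.70 with 8 libraries and -0.46 with 7, beside -0.03 and -2.14e-05 over all genes tested. By adjusted p alone, 4 members passed with 8 libraries and 5 with 7, where 36.3% and 57% of all genes passed, 19.1% and 28.4% being lower. The libraries of the groups did not overlap for PTCH1, BOC, SMO and SUFU, with and without vehicle replicate 3, and TP-472 was lower in each. Of all genes tested, 21.6% were lower and 23.8% higher with TP-472 with no overlap in 8 libraries, and 28.7% and 29.8% in 7. In bulk RNA, fewer cells that express a gene and less RNA per cell cannot be told apart.

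**Figure D1:**
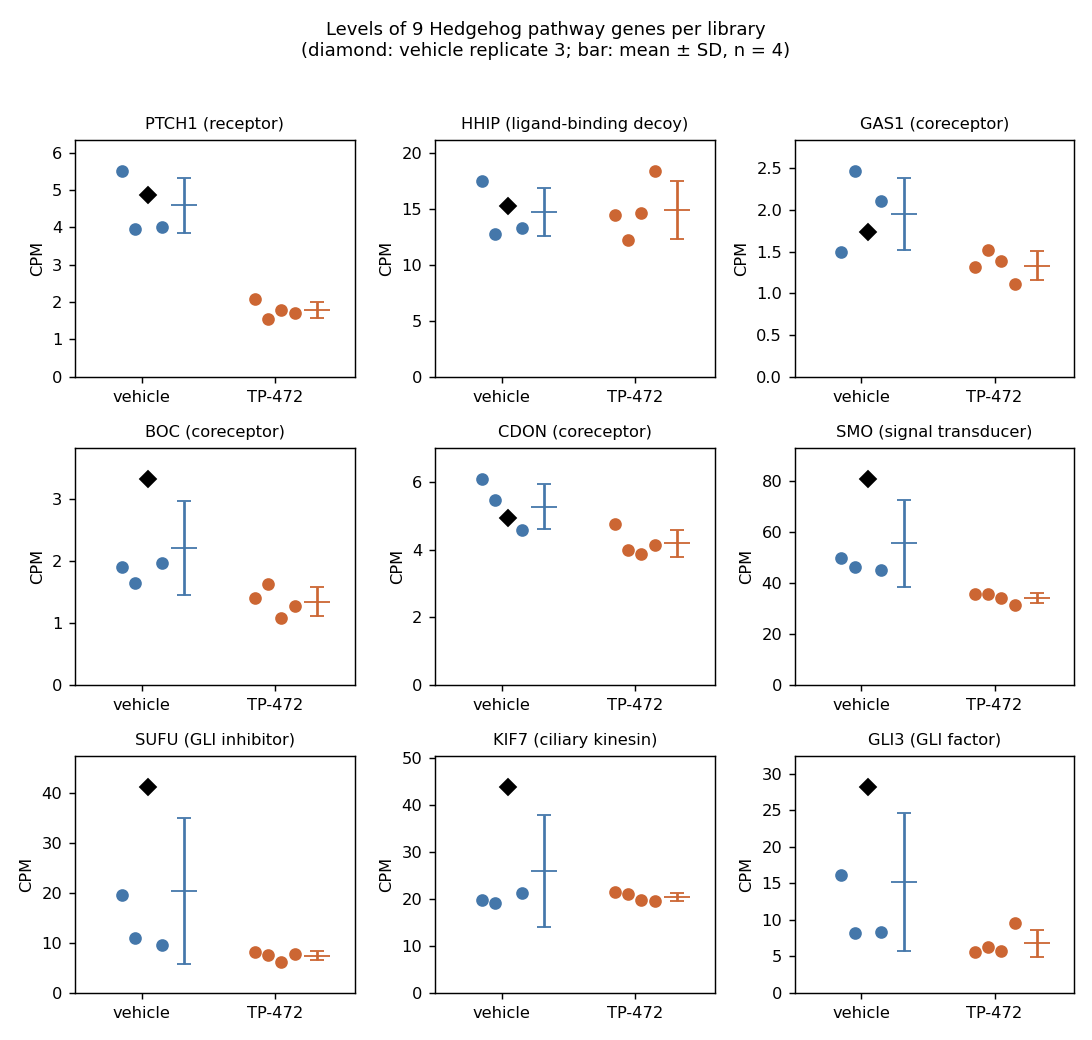
CPM of each of the 9 genes (y axis) in every vehicle and TP-472 library (x axis), with the mean ± SD of 4 libraries as bars and vehicle replicate 3 as a black diamond. The PTCH1 points of the TP-472 group, from 1.55 to 2.07 CPM, lie below all vehicle points, while the diamond lies far above the other vehicle points for SMO, SUFU, KIF7 and GLI3.

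**Figure D2:**
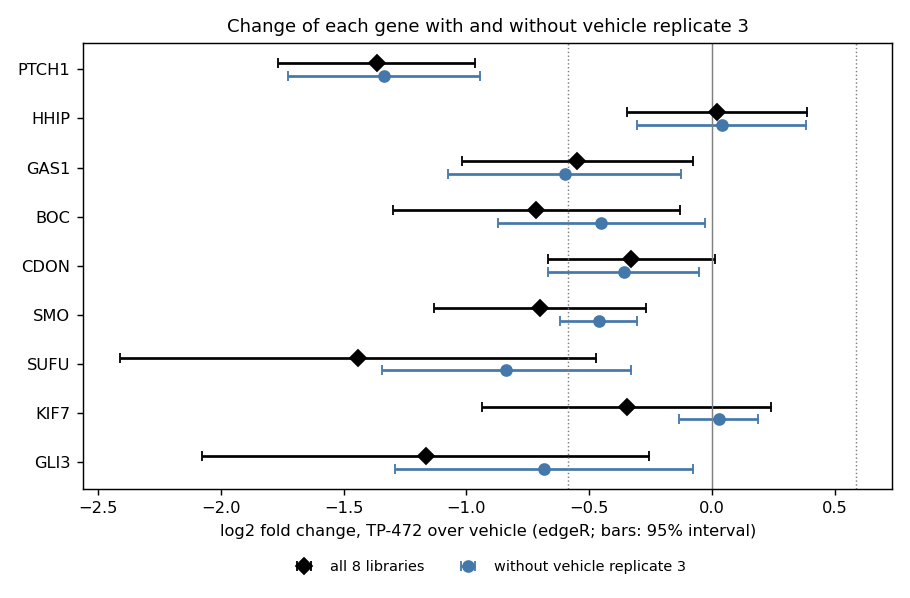
Log2 fold change of TP-472 over vehicle (x axis) for each gene (y axis) from edgeR, with 95% intervals, for all 8 libraries (black diamonds) and without vehicle replicate 3 (blue circles); dotted lines mark a fold of 1.5. The values of PTCH1 nearly coincide (-1.37 and -1.34), whereas those of SUFU move from -1.44 to -0.84.

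PTCH1 (ENSG00000185920.16, GRCh38 chr9:95442980-95517057, minus strand) encodes the receptor that restrains SMO. Levels are given in CPM, the share of a library's counts that fall on a gene, scaled between libraries by the TMM method. PTCH1 was at 5.51, 3.97, 4.86 and 4.02 CPM in vehicle replicates 1 to 4 and at 2.07, 1.55, 1.78 and 1.72 CPM in TP-472 replicates 1 to 4. The TP-472 libraries all lay below the vehicle libraries, and vehicle replicate 3 was within the range of its group. The means were 4.59 ± 0.74 CPM (SD, n = 4) and 1.78 ± 0.217 CPM (SD, n = 4). The log2 fold change was -1.37 (SE 0.178, 95% interval -1.77 to -0.96, edgeR adjusted p = 0.000835). With 7 libraries it was -1.34 (SE 0.174, edgeR adjusted p = 0.000181), a 2.53-fold fall. The exact two-sided permutation test on the CPM gave p = 0.0286 with 8 libraries and p = 0.0571 with 7, in each case the smallest p the design allows. The annotated antisense transcripts that overlap PTCH1 were at or below 0.195 CPM in both group means.

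HHIP (ENSG00000164161.10, GRCh38 chr4:144646021-144745271, plus strand) encodes a membrane protein that binds Hedgehog ligands and withholds them from PTCH1. It was at 17.5, 12.8, 15.3 and 13.3 CPM in vehicle replicates 1 to 4 and at 14.5, 12.2, 14.6 and 18.4 CPM in TP-472 replicates 1 to 4. The groups overlapped, with the highest and the lowest value both in TP-472 libraries. The log2 fold change was 0.02 (SE 0.162, 95% interval -0.35 to 0.39, edgeR adjusted p = 0.928), and 0.04 (95% interval -0.31 to 0.38, adjusted p = 0.843) without vehicle replicate 3. These intervals do not reach the 1.5-fold limit on either side. HHIP and PTCH1 are both known pathway targets, but the difference between their changes was not tested.

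The coreceptors GAS1, BOC and CDON, cell surface proteins that bind ligand together with PTCH1, gave lower means with TP-472, by less than 2-fold each. GAS1 (ENSG00000180447.7, GRCh38 chr9:86944363-86947189, minus strand) is a lipid-anchored member. It was at 1.496, 2.47, 1.74 and 2.11 CPM in vehicle replicates 1 to 4 and at 1.32, 1.52, 1.39 and 1.11 CPM in TP-472 replicates 1 to 4. TP-472 replicate 2 was just above vehicle replicate 1, and the other TP-472 libraries lay below the vehicle group. The change on the log2 scale was -0.55 (SE 0.209, 95% interval -1.02 to -0.08, edgeR adjusted p = 0.0668), which did not pass. With 7 libraries it was -0.60 (SE 0.211, edgeR adjusted p = 0.0343), a 1.52-fold fall that is only just past both limits. Leaving out a further library ended that call for vehicle replicate 2 (-0.43) or 4 (-0.57) and for TP-472 replicate 1 (-0.60), 3 (-0.62) or 4 (-0.53), with edgeR adjusted p from 0.0584 to 0.140. With vehicle replicate 1 left out instead of replicate 3 the value was -0.66 and passed (edgeR adjusted p = 0.0481).

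BOC (ENSG00000144857.14, GRCh38 chr3:113211003-113287459, plus strand) is an immunoglobulin superfamily coreceptor. It was at 1.91, 1.64, 3.33 and 1.97 CPM in vehicle replicates 1 to 4 and at 1.398, 1.63, 1.08 and 1.27 CPM in TP-472 replicates 1 to 4. The groups did not overlap, but vehicle replicate 2 and TP-472 replicate 2 nearly met, and vehicle replicate 3 was 1.81 times the mean of the other vehicle libraries. On the log2 scale the change was -0.72 (SE 0.259, edgeR adjusted p = 0.0570) with 8 libraries and -0.45 (SE 0.188, edgeR adjusted p = 0.0648) with 7, and passed in neither. DESeq2 called it with 8 libraries (-0.72, DESeq2 adjusted p = 0.0373). Leaving out vehicle replicate 2 alone gave -0.83, which passed (edgeR adjusted p = 0.0396). CFAP44, a cilium protein gene that overlaps BOC on the opposite strand, was at 2.90 CPM in vehicle and 7.04 CPM in TP-472 libraries. The strand setting of the counting is not given in the sources used here, so the share of reads from the 2 genes is uncertain.

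CDON (ENSG00000064309.14, GRCh38 chr11:125955796-126063335, minus strand) is the relative of BOC. It was at 6.10, 5.46, 4.92 and 4.58 CPM in vehicle replicates 1 to 4 and at 4.76, 4.002, 3.86 and 4.15 CPM in TP-472 replicates 1 to 4. Only TP-472 replicate 1 reached into the vehicle range. Its log2 fold change was -0.33 (SE 0.150, edgeR adjusted p = 0.114) and, without vehicle replicate 3, -0.36 (SE 0.137, edgeR adjusted p = 0.0473), a 1.28-fold difference under the fold limit.

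SMO (ENSG00000128602.11, GRCh38 chr7:129188872-129213545, plus strand) is the membrane protein that passes the signal on once PTCH1 is bound by ligand. It was at 49.7, 46.0, 80.8 and 45.2 CPM in vehicle replicates 1 to 4 and at 35.7, 35.6, 33.9 and 31.2 CPM in TP-472 replicates 1 to 4. The groups did not overlap, and vehicle replicate 3 was 1.72 times the mean of the other vehicle libraries. With 8 libraries the means were 55.4 ± 17.0 CPM and 34.1 ± 2.11 CPM (SD, n = 4 each), a 1.63-fold fall (log2 fold change -0.70, SE 0.191, edgeR adjusted p = 0.0210). Without that library the vehicle mean was 47.0 ± 2.39 CPM (SD, n = 3). The fall was then 1.38-fold, with a smaller p but under the fold limit (log2 fold change -0.46, SE 0.0693, 95% interval -0.62 to -0.31, edgeR adjusted p = 0.000411). Leaving out TP-472 replicate 2, 3 or 4 from the 8 libraries gave -0.72, -0.70 and -0.66 and ended the call (edgeR adjusted p = 0.0526, 0.0590 and 0.0605). After the correction for GC content the value with 8 libraries was -0.35, and with sample quality weights -0.39, both under the fold limit.

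SUFU (ENSG00000107882.12, GRCh38 chr10:102503987-102633535, plus strand) encodes the cytoplasmic protein that binds and restrains the GLI factors. It was at 19.6, 11.01, 41.2 and 9.50 CPM in vehicle replicates 1 to 4 and at 8.23, 7.55, 6.24 and 7.87 CPM in TP-472 replicates 1 to 4. All TP-472 libraries lay below the vehicle group, whose own values differed widely. Vehicle replicate 3 was 3.09 times the mean of the other vehicle libraries, and replicate 1 was 1.91 times the mean of replicates 2 and 4. The log2 fold change was -1.44 (SE 0.429, 95% interval -2.41 to -0.47, edgeR adjusted p = 0.0292), a 2.72-fold fall. In the 7 libraries it was -0.84 (SE 0.226, 95% interval -1.35 to -0.33, edgeR adjusted p = 0.0106), a 1.79-fold fall, and without vehicle replicates 1 and 3 it was -0.46, under the fold limit. The call with 8 libraries also ended on leaving out vehicle replicate 1 (-1.46) or TP-472 replicate 1, 2, 3 or 4 (-1.50, -1.45, -1.37 and -1.47), with edgeR adjusted p from 0.0591 to 0.0821.

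KIF7 (ENSG00000166813.15, GRCh38 chr15:89608789-89655451, minus strand) encodes a kinesin of the ciliary tip that organises GLI and SUFU there. It was at 19.9, 19.3, 44.0 and 21.2 CPM in vehicle replicates 1 to 4 and at 21.5, 21.0, 19.9 and 19.6 CPM in TP-472 replicates 1 to 4. Apart from vehicle replicate 3, which was 2.18 times the mean of the others, all 7 libraries lay between 19.3 and 21.5 CPM. The log2 fold change was -0.35 (SE 0.261, 95% interval -0.94 to 0.24, edgeR adjusted p = 0.315) with 8 libraries. Without vehicle replicate 3 it was 0.03 (SE 0.0718, 95% interval -0.14 to 0.19, edgeR adjusted p = 0.770), and that interval does not reach the 1.5-fold limit. TICRR, a DNA replication gene that overlaps KIF7 on the opposite strand, was at 128 CPM in vehicle and 70.7 CPM in TP-472 libraries, so the KIF7 values carry the same uncertainty of strand as those of BOC.

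GLI3 (ENSG00000106571.14, GRCh38 chr7:41960950-42237870, minus strand) was at 16.2, 8.22, 28.3 and 8.35 CPM in vehicle replicates 1 to 4 and at 5.54, 6.26, 5.80 and 9.56 CPM in TP-472 replicates 1 to 4. The groups overlapped, since TP-472 replicate 4 exceeded vehicle replicates 2 and 4. Vehicle replicate 3 was 2.59 times the mean of the other vehicle libraries, and replicate 1 was 1.95 times the mean of replicates 2 and 4. The log2 fold change was -1.17 (SE 0.403, edgeR adjusted p = 0.0492), just inside the threshold. Without vehicle replicate 3 it was -0.68 (SE 0.270, edgeR adjusted p = 0.0534), just outside it, and without vehicle replicates 1 and 3 it was -0.29 (edgeR adjusted p = 0.252). The call with 8 libraries ended on leaving out vehicle replicate 1 (-1.14) or 3 (-0.68) or any single TP-472 library (-1.09, -1.13, -1.10 and -1.38 for replicates 1 to 4). With vehicle replicate 3 out, a further vehicle replicate 2 or 4 or TP-472 replicate 4 left out gave -0.85, -0.84 and -0.90, each of which passed (edgeR adjusted p = 0.0325, 0.0356 and 0.0188). The exact two-sided permutation p was 0.0857 with 8 libraries and 0.171 with 7. Counts of RNA do not separate full-length GLI3 protein from its cut repressor form.

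Vehicle replicates 1 and 3 were both high for SUFU and GLI3, but not for all members. Vehicle replicate 3 placed SUFU at the 96.8 percentile of all genes tested for its ratio to the other vehicle libraries, GLI3 at the 94.2 percentile and KIF7 at the 88.7 percentile. BOC was at the 81.1 and SMO at the 79.2 percentile. For this library PTCH1, HHIP, CDON and GAS1 were near the middle, between the 41.9 and 55.3 percentiles. Vehicle replicate 1 placed SUFU at the 98.1 percentile and GLI3 at the 98.3 percentile for its ratio to replicates 2 and 4. For the same ratio PTCH1 was at the 89.3, HHIP at the 87.7, CDON at the 80.4 and GAS1 at the 1.79 percentile. SMO was at the 66.8, BOC at the 63.2 and KIF7 at the 48.6 percentile. Correlations between members were taken over the 8 libraries, which differ in treatment and include vehicle replicates 1 and 3. The highest Pearson correlation of log2 CPM was 0.955 for SUFU and GLI3, followed by 0.951 for SMO and SUFU. The lowest was -0.632, for HHIP and GAS1.

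Levels of different genes were compared per kilobase of annotated exon, on the scale of CPM per kb. In vehicle libraries without replicate 3, SMO led at 10.9, followed by KIF7 at 4.03, SUFU at 1.95, HHIP at 1.20, GLI3 at 0.996, GAS1 at 0.716, CDON at 0.507, PTCH1 at 0.271 and BOC at 0.178. Library values of neighbours in that order were separate between SMO and KIF7, KIF7 and SUFU, CDON and PTCH1, and PTCH1 and BOC, and overlapped elsewhere. With replicate 3 included, GLI3 (1.39) came before HHIP (1.22), with overlapping values. KIF7 then also overlapped SUFU, and PTCH1 overlapped BOC. The level of KIF7 carries the uncertainty of strand given above. In TP-472 libraries SMO (7.91) and KIF7 (4.10) again led, and PTCH1 was lowest at 0.107, overlapping BOC at 0.130. The length counts all annotated exons of a gene, so a gene with many isoforms, such as PTCH1 with 16591 bases, comes out low on this scale.

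**Figure D3:**
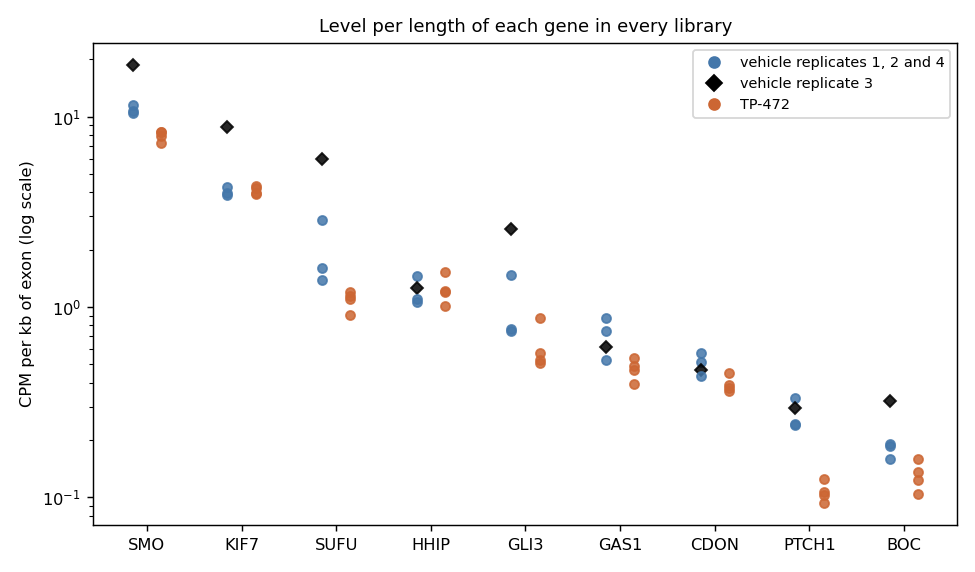
CPM per kb of exon (y axis, log scale) of each gene (x axis) in every library, with vehicle replicates 1, 2 and 4 in blue, vehicle replicate 3 as a black diamond and TP-472 in orange. SMO and KIF7 had the highest means in both groups, KIF7 with the uncertainty of strand given in the text. The TP-472 points of PTCH1 lie below all its vehicle points.

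GLI1 and GLI2, the other GLI factors, fell with TP-472. GLI1 was at 6.51, 5.78, 10.8 and 5.59 CPM in vehicle replicates 1 to 4 and at 1.92, 2.40, 1.72 and 2.22 CPM in TP-472 replicates 1 to 4, with no overlap. Its log2 fold change was -1.80 (SE 0.247, edgeR adjusted p = 0.00105), and -1.53 without vehicle replicate 3 (adjusted p = 3.01e-05). GLI2 was at 17.5, 9.23, 43.7 and 9.89 CPM in vehicle and at 6.99, 5.10, 5.22 and 8.38 CPM in TP-472 libraries, with no overlap, and its log2 fold change was -1.64 with 8 libraries and -0.93 with 7 (edgeR adjusted p = 0.0286 and 0.0102). The GLI2 call with 8 libraries ended on leaving out vehicle replicate 1 (-1.70) or any single TP-472 library (-1.80 to -1.55). Without vehicle replicates 1 and 3 its change was -0.57, under the fold limit. With 8 libraries GLI2 was -1.07 after the GC correction and -0.76 with quality weights, and limma-voom gave -1.37, which did not pass (limma adjusted p = 0.0536). As a description with no test, the sum of the 3 factors was 5.41, 3.38, 11.1 and 3.44 CPM per kb in vehicle and 1.91, 1.84, 1.65 and 2.54 CPM per kb in TP-472 libraries. GLI3 made up 27.3%, 22.2%, 23.2% and 22.2% of that sum in vehicle and 26.4%, 31.1%, 32.1% and 34.4% in TP-472 libraries. TP-472 replicate 1 was below vehicle replicate 1, and the other 3 TP-472 libraries were above the whole vehicle group. The share of GLI1 was 32.8 ± 8.30% in vehicle and 25.1 ± 4.31% in TP-472 libraries (SD, n = 4 each). That of GLI2 was 43.5 ± 7.34% and 43.9 ± 4.92%. The vehicle shares without replicate 3 were 36.0 ± 6.44% for GLI1, 40.1 ± 3.57% for GLI2 and 23.9 ± 2.94% for GLI3 (SD, n = 3).

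**Figure D4:**
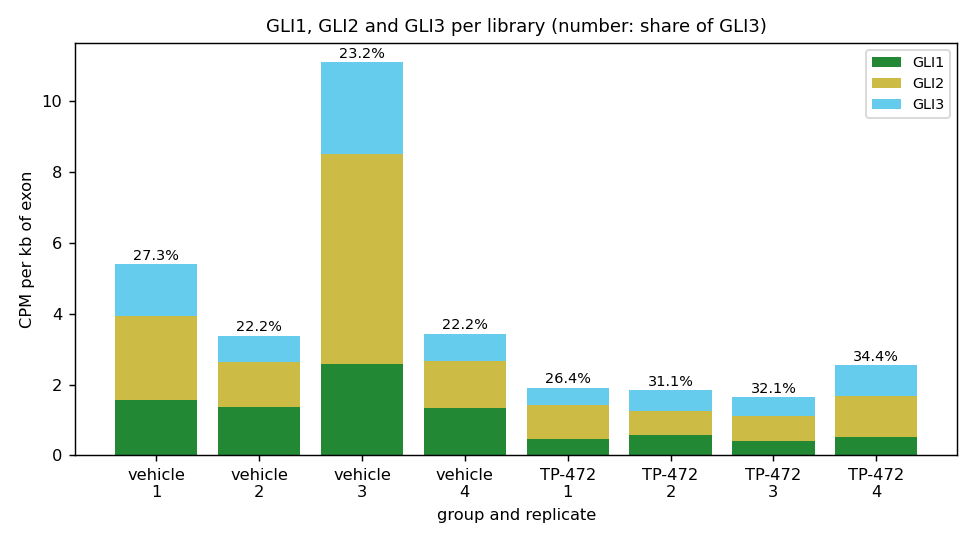
Stacked CPM per kb of exon (y axis) of GLI1, GLI2 and GLI3 in each library (x axis), with the share of GLI3 in percent printed above each bar. The bars of the TP-472 libraries reach 1.65 to 2.54 CPM per kb and those of vehicle 3.38 to 11.1.

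RNA of the ligands was near 0 in all libraries. SHH had 0, 0, 3 and 1 counts in vehicle and 3, 3, 7 and 9 in TP-472 libraries (exact permutation p = 0.0857 with 8 libraries and 0.0571 with 7). IHH had 0, 1, 3 and 2 counts and 7, 1, 5 and 6 counts (exact permutation p = 0.114 and 0.171). DHH had 1, 2, 5 and 3 counts and 15, 6, 14 and 13 counts, with no overlap (exact permutation p = 0.0286 and 0.0571, the smallest possible). All 3 ligands were under the filter, and no fold is given at these counts.

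The wider pathway was read from 6 lists, described by counts and medians only. Of the other listed genes 72 were tested, of which 12 were called lower and 3 higher with 8 libraries (10 and 2 with 7), and their median log2 fold changes were -0.21 and -0.18. Of all genes tested, 14.9% were lower and 12% higher with 8 libraries, and 13.4% and 12% with 7. The lower counts were near these shares and the higher counts under them, but no difference from all genes was tested. Of 11 tested genes of SMO and its regulators, 4 were lower and 0 higher with 8 libraries, and 2 and 0 with 7. EVC, a ciliary partner of SMO, was at 30.8 to 102 CPM in vehicle and 19.7 to 23.4 CPM in TP-472 libraries (log2 fold change -1.25, edgeR adjusted p = 0.0265, and -0.71 without vehicle replicate 3), and the groups did not overlap. Leaving out any single TP-472 library ended the EVC call with 8 libraries (edgeR adjusted p from 0.0611 to 0.0756), and without vehicle replicates 1 and 3 its change was -0.50, under the fold limit.

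Of 23 tested GLI factors and regulators, 4 were lower and 0 higher with 8 libraries (GLI1, GLI2, GLI3 and SUFU) and 3 and 0 with 7. The other 19 with 8 libraries, among them the kinases and ubiquitin ligase subunits that act on GLI proteins, were not called, which does not show them unchanged. By adjusted p alone, 6 of the 23 were lower and 1 higher with 8 libraries, and 5 and 3 with 7. Of all genes, 19.1% and 28.4% were lower by that measure. Of 26 tested genes of ciliary transport, 5 were lower and 0 higher in each fit, beside 14.9% (8 libraries) and 13.4% (7 libraries) of all genes lower. By adjusted p alone, 8 were lower and 2 higher with 8 libraries, where 19.1% of all genes were lower, and 15 and 4 with 7, where 28.4% were lower. IFT27, a small GTPase of the transport particle, was at 31.8 to 35.6 CPM in vehicle and 18.4 to 20.4 CPM in TP-472 libraries (log2 fold change -0.79, edgeR adjusted p = 0.000661, and -0.75 with 7 libraries). IFT140, of the retrograde complex, was at 12.3 to 30.6 CPM and 5.33 to 6.17 CPM (log2 fold change -1.69, edgeR adjusted p = 0.00225, and -1.34 with 7). IFT122 and IFT74, also transport subunits, gave log2 fold changes of -0.77 and -0.70 (edgeR adjusted p = 0.00232 and 0.00825), and -0.68 and -0.83 with 7. These 4 were called with and without vehicle replicate 3, but IFT122 was -0.57, under the fold limit, without vehicle replicates 1 and 3. With sample quality weights IFT122 was -0.584 with 8 libraries and -0.580 with 7, both just under that limit.

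Of 16 tested target genes, 4 were lower and 3 higher with 8 libraries, and 3 and 2 with 7. Over all genes tested the shares were 14.9% lower and 12% higher with 8 libraries, and 13.4% and 12% with 7. The difference from these shares was not tested. PTCH1 and GLI1 were lower, as was IGFBP6, which encodes a binding protein of insulin-like growth factors (log2 fold change -0.79, edgeR adjusted p = 0.00541, and -0.68 with 7 libraries). After a correction for GC content IGFBP6 was -0.43 with 8 libraries and no longer passed (edgeR adjusted p = 0.0557), and -0.57 with 7, under the fold limit. CCND1, the cyclin D1 gene, was higher: 111 to 165 CPM in vehicle and 249 to 282 CPM in TP-472 libraries (log2 fold change 1.04, edgeR adjusted p = 0.00106, and 1.19 without vehicle replicate 3). CCNE1, the cyclin E1 gene, was also higher, at 21.05 to 28.05 CPM and 36.04 to 39.5 CPM (log2 fold change 0.65, edgeR adjusted p = 0.00388). With sample quality weights and 8 libraries CCNE1 was 0.51, under the fold limit. With 7 libraries its change was 0.59, at the fold limit, and it fell under that limit (0.50 to 0.57) on leaving out also vehicle replicate 1 or TP-472 replicate 2 or 3. The median of the tested targets was -0.22 with 8 libraries and -0.05 with 7, beside -0.03 and -2.14e-05 over all genes.

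**Figure D5:**
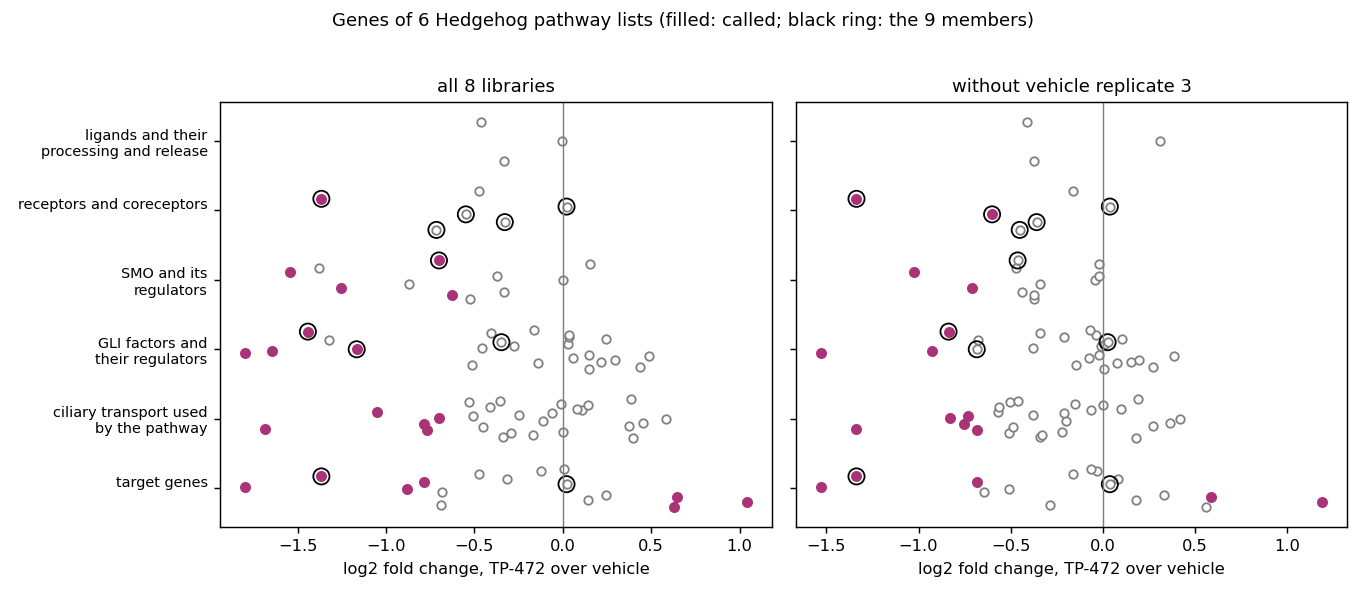
Log2 fold change of TP-472 over vehicle (x axis) of the genes of 6 lists (y axis), for all 8 libraries and without vehicle replicate 3; filled points are called, and black rings mark the 9 members. Called points lie on the lower side in 4 of the lists and on both sides among the target genes, where CCND1 is at 1.04 and 1.19.

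The cell line was checked against markers. Of 10 smooth muscle markers, CALD1 (196 CPM over all libraries), ACTA2 and SMTN were abundant, DES was at 3.25 CPM in vehicle and 0.629 CPM in TP-472 libraries, and MYH11, MYOCD and ACTG2, which define mature smooth muscle, were near 0 (at or below 0.236 CPM in each group). The summed smooth muscle markers were 439 to 524 CPM in vehicle and 371 to 380 CPM in TP-472 libraries. The immune list summed to 7.15 to 8.51 CPM in vehicle and 9.75 to 12.97 CPM in TP-472 libraries, nearly all of it CD68 (7.53 and 10.4 CPM), with CD3E at 0 and PTPRC at 0 and 0.00705 CPM. The uterine list, led by HOXA10, summed to 3.88 to 5.93 CPM in vehicle and 7.19 to 7.64 CPM in TP-472 libraries, with ESR1 and PGR at or below 0.0539 CPM in each group mean. The endothelial list summed to 0.0554 to 0.144 CPM in vehicle and 0.414 to 0.581 CPM in TP-472 libraries, and the epithelial list, led by KRT18, to 20.0 to 27.7 CPM in vehicle and 21.3 to 27.4 CPM in TP-472 libraries. The summed mesenchymal markers, led by VIM, were 3208 to 4770 CPM and 2156 to 2301 CPM, and the part of these marker lists in the values of the members was not tested.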

How the data were processed

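RNA from vehicle and TP-472 treated SK-UT-1 cells was measured in 4 libraries each. The authors prepared TruSeq libraries, described as strand-specific, and quantified reads with Salmon 1.4.0 (named in the submitters' processing notes, on GRCh38) and tximport against Gencode release 34. What they deposited are estimated counts per gene with no scaling between libraries. No column was left out. The study states at least 3 biological replicates, but the labels give only replicate numbers, so p-values measure the spread between these libraries, which may be technical.

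After rounding, genes above 1 CPM in 4 or more libraries were kept and TMM scaling was applied. Groups were compared in edgeR 4.0.16 (R 4.3.3) by glmQLFit and glmQLFTest, without covariates and with Benjamini-Hochberg adjustment over all 14073 genes tested. Genes were called at an adjusted p under 0.05 and a fold over 1.5. The same genes were tested without vehicle replicate 3. Exact two-sided permutation tests used the 70 (8 libraries) or 35 (7 libraries) assignments of libraries. Levels per kb, gene positions and GC content came from GENCODE release 29 on GRCh38. No 2 libraries were copies: the lowest mean chi-square was 10.3.

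Named genes were the members, GLI1, GLI2 and the ligands, and up to 4 more genes per list by lowest p among those called alike in both fits, plus the 2 genes most correlated with each member. Some genes of the lists are not reported here, although the counts and medians of the lists include them. The members and lists were chosen with earlier results of these data known. On simulated data, 106 of 200 genes changed 2-fold were recovered with all 8 libraries, with 11 false calls. Without vehicle replicate 3 there were 182 recovered and 8 false calls. The simulated counts were drawn independently for each gene around a flat mean, with only these 200 of 14073 genes changed. The GC-linked shift of vehicle replicate 3 was not simulated, so the false calls do not measure the error rate in the real data. Alternatives included DESeq2 1.42.0, limma 3.58.1 (voom), other scalings and filters, a GC correction, a replicate block and each library left out.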

Additional observations from a re-analysis of the deposited data

Results flagged for a closer look

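In 3 of the 38 gene and group combinations checked, one library lay further from the rest of its group than Dixon's 95% limit for 4 samples, where chance alone gives about 1 in 20. All 3 were vehicle replicate 3. SMO was at 80.8 CPM there, with the other vehicle libraries at 45.2 to 49.7 CPM. KIF7 was at 44.0 CPM, with the others at 19.3 to 21.2 CPM. CCND1 was at 165 CPM, with the others at 111 to 117 CPM.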

How the results depend on the processing

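PTCH1 was called under all 21 alternatives with 8 libraries (log2 fold change -1.46 to -1.18) and all 20 without vehicle replicate 3 (-1.43 to -1.17). The number of members called with 8 libraries, 4 by edgeR, was 5 with DESeq2 (4 with 7 libraries), 2 with limma-voom, 2 with voom and sample quality weights and 1 to 5 when a library was left out: 1 without TP-472 replicate 2, 3 or 4, 2 without TP-472 replicate 1 and 3 without vehicle replicate 3. Genes called ranged from 2690 to 4223 with a library left out, and from 3283 to 3785 without vehicle replicate 3. By adjusted p alone, 8024 genes and 5 members passed without that library. The causes were not tested.

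After the GC correction with 8 libraries, SUFU was -1.15 and GLI3 -1.16, both still called. CCNE1 with 7 libraries fell under the fold limit with the GC correction (0.54), the block (0.58), upper-quartile scaling (0.57), a looser filter (0.57), no filter (0.56) and quality weights (0.51). SUFU passed at an adjusted p under 0.05 under 14 of 21 and 20 of 20 alternatives, SMO under 18 and 20, GLI3 under 10 and 9, GAS1 under 4 and 14. Past the fold limit the counts are lower: without vehicle replicate 3 SMO was under it in all 20 (-0.49 to -0.35), and quality weights put SUFU at -0.49 with 8 libraries and -0.47 with 7, and EVC at -0.55 and -0.53, all under it. With a replicate block, 3055 genes and 2 members (PTCH1 and SMO) were called, and SUFU, GLI3, GLI2 and EVC were not (edgeR adjusted p = 0.0728, 0.114, 0.0666 and 0.0605). Without vehicle replicate 3 the block called 3473 genes and 2 members (PTCH1 and SUFU), and GAS1 was not called (-0.60, edgeR adjusted p = 0.0667). GAS1 with 7 libraries was also not called with limma-voom (-0.58) or after the GC correction (-0.54), both under the fold limit. The labels share only replicate numbers: deviations of same-numbered libraries correlated at -0.18 to 0.12, so the numbers were not taken to pair them.

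Only values that were not called changed sign. HHIP with 8 libraries was -0.0006 with upper-quartile scaling, -0.0089 with library totals, -0.22 after the GC correction, and -0.0416, -0.0232 and -0.0967 without vehicle replicate 2, vehicle replicate 4 or TP-472 replicate 4. On leaving out one library it went up to 0.12. KIF7 was 0.0154 with quality weights, 0.14 after the GC correction and 0.0267 without vehicle replicate 3, and down to -0.468 without vehicle replicate 2. Without vehicle replicate 3, HHIP was -0.0468, -0.0194 and -0.0856 on leaving out vehicle 2, vehicle 4 or TP-472 4, and 0.1924 without vehicle 1. KIF7 was -0.004 without a filter and -0.0043 and -0.0062 without vehicle 2 or TP-472 1, and up to 0.0671 without vehicle 4.

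Genes near 2 CPM, such as GAS1 and BOC, rest on 39 to 115 counts a library, and 1 dose, 1 time and 1 cell line were measured. In the TP-472 libraries PTCH1 also rests on only 55 to 80 counts and GLI1 on 62 to 85.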

Other observations

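For each member, the genes whose log2 CPM followed it most closely over the 8 libraries were listed among the 11078 genes that averaged 5 CPM or more. The closest to PTCH1 were NIPAL3 (Pearson r 0.997) and GALNT10 (0.991), and the closest to SMO were EML3 and OSBPL5 (both 0.998). PLXND1 (0.999) and BRD1 (0.997) were closest to SUFU, DCAF5 (0.993) and ZFHX3 (0.991) to GLI3, and RECQL4 (0.996) and PPP1R37 (0.995) to KIF7. SH2B1 (0.985) and CDPF1 (0.981) were closest to BOC, HDGF (0.983) and KIF22 (0.970) to GAS1, MAGED4B (0.977) and SLC5A4-AS1 (0.920) to CDON, and TBC1D9 (0.956) and TACC1 (0.954) to HHIP. These are descriptions over 8 points, vehicle replicate 3 among them, and the genes share the depth and treatment of each library. Without vehicle replicate 3 the log2 fold change of RECQL4 went from -0.41 to 0.004 and that of PPP1R37 from -0.63 to -0.05. PLXND1 went from -1.42 to -0.82, whereas NIPAL3 stayed at -0.84 and -0.83. The part of that library in these correlations was not tested.

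The letters of the GLI consensus lay in windows of 81 genes, of which 35 were tested. With 8 libraries 6 were called lower and 3 higher, and with 7 libraries 6 and 5, with median log2 fold changes of -0.03 and 0.08. Over all genes tested, 14.9% were lower and 12% higher with 8 libraries and 13.4% and 12% with 7, and the medians were -0.03 and -2.14e-05, so these genes as a whole lay near the background. PTCH1 had the fifth lowest log2 fold change of these genes with 8 libraries and the second lowest with 7.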
